A study of Mus musculus with 4 samples.

Results

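Enterochromaffin cells are the serotonin-making enteroendocrine cells of the gut epithelium, and 58 cells of this type were found among 5429 cell barcodes of mouse intestinal organoids profiled by droplet RNA sequencing. Members were selected on measured UMIs of 8 genes. A cell was counted as enterochromaffin-type when at least 500 genes were detected in it, when Chga and Chgb together reached 5 unique molecular identifiers (UMIs, 1 per captured RNA molecule) and 500 CPM (UMIs scaled to a cell total of 1000000), and when UMIs of Tac1 and Tph1 together exceeded those of Gcg, Cck, Pyy and Ghrl together. The members were chosen by these 8 genes, so their levels are given as a description. They stayed in the fits across all genes, and no test of them is used as a result. The 58 cells comprised 20 from knockout 1, 24 from knockout 2, 13 from control 1 and 1 from control 2.

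The knockout libraries came from organoids in which Cbl and Cblb, which encode ubiquitin ligases that tag activated receptor tyrosine kinases for removal, had been deleted. Crypts of 2 mice aged 10 weeks, carrying floxed alleles of Cbl and Cblb (flox/flox for each) and the tamoxifen-activated recombinase R26 CreERT2, were grown into organoids. Knockout organoids then received 400 nM 4-hydroxytamoxifen for 3 days, and control organoids of the same genotype received none. Deletion, exposure to 4-hydroxytamoxifen and activity of the recombinase were therefore present together in the knockout libraries and cannot be told apart. With 2 libraries in each group, and nothing in the labels stating how the organoids of the 2 mice were divided between wells, p-values measure the spread between these libraries.

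Enterochromaffin cells make serotonin from tryptophan: Tph1 hydroxylates the amino acid with a tetrahydrobiopterin cofactor that depends on Gch1, Ddc decarboxylates the product, and the vesicular transporters Slc18a1 and Slc18a2 load the amine into granules. Tac1 encodes the precursor of substance P, which many of these cells co-release, and the chromogranins Chga and Chgb are bulk proteins of the granules. Other enteroendocrine cells instead store peptide hormones such as glucagon-like peptide (from Gcg), cholecystokinin, peptide YY and ghrelin.

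The libraries differed in depth and in the number of members. Member cells held a median of 8324 and 7091 UMIs in knockout 1 and knockout 2, and 11186 and 11366 UMIs in control 1 and control 2. Cells outside the chromogranin gate held 16879 and 18250 UMIs in the knockout libraries, and 20891 and 28024 UMIs in the control libraries. Summed over members, the libraries gave 220958 and 195588 UMIs in the knockouts, and 246786 and 11366 UMIs in the controls. A single UMI in the control 2 member therefore counts as 88.0 CPM, against 4.05 to 5.11 CPM in the other libraries. Among all deposited barcodes, 2 sequences occurred in more than 1 library, and 0 of them belonged to a member.

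A small set of members stood apart by depth. Above 20000 UMIs lay 4 members: cells of 40139 and 66118 UMIs in knockout 1, 38631 UMIs in knockout 2 and 124305 UMIs in control 1. The control 1 cell alone supplied 50.4% of the UMIs of its library's members. Olfm4, a stem-cell gene, had 171 and 160 UMIs in the knockout 1 cells and 398 UMIs in the control 1 cell. Apoa1 and Fabp2, enterocyte genes for lipid transport, had 307 and 108 UMIs in the knockout 2 cell. A doublet score removed 1 of these 4 cells, the knockout 2 cell, so the shares and the counts of genes were also computed without all 4.

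The cells that the rule selected carried the chromogranin and serotonin genes at high levels. Summed over members, Chgb stood at 28548 and 37620 CPM in knockout 1 and knockout 2, and at 29491 and 32201 CPM in control 1 and control 2. Chga stood at 4480 and 5512 CPM in the knockouts, and at 4595 and 10646 CPM in the controls. The 4 libraries lay close together for Chgb, whereas the single control 2 cell was highest for Chga. Tac1 measured 2783 and 5629 CPM in the knockouts, against 3764 and 1320 CPM in the controls, with overlapping groups. Tph1 measured 815 and 1063 CPM in the knockouts, against 729 and 2376 CPM in the controls, again with overlap. UMIs of Tac1 and of Tph1 were found together in 45 members, Tac1 alone in 3 and Tph1 alone in 10. Per cell, Tac1 spanned 0 to 21714 CPM with a median of 3539 CPM, and Tph1 spanned 0 to 4587 CPM with a median of 1253 CPM.

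Most members lay well above the chromogranin limits, and fewer lay far above the limit on hormone genes. UMIs of Tac1 and Tph1 together were under 5 in 10 of the 58 members, and 3 of these held 1 such UMI. A control 1 cell passed with 2 such UMIs against 1 of Cck. The lowest member had 11 chromogranin UMIs, against a limit of 5. The lowest chromogranin level of a member was 523 CPM, in the 40139-UMI cell of knockout 1, and the next lowest was 3154 CPM. A barcode of control 2 lay just outside, at 498 CPM. Peptide-hormone UMIs were found in 2 members, as Cck in a cell of knockout 2 and in a cell of control 1. Outside the chromogranin gate a Tac1 UMI was found in 0.626% and 0.538% of cells in the knockouts and in 0.631% and 0% in the controls, at the greater median depths given above.

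**Figure D1:**
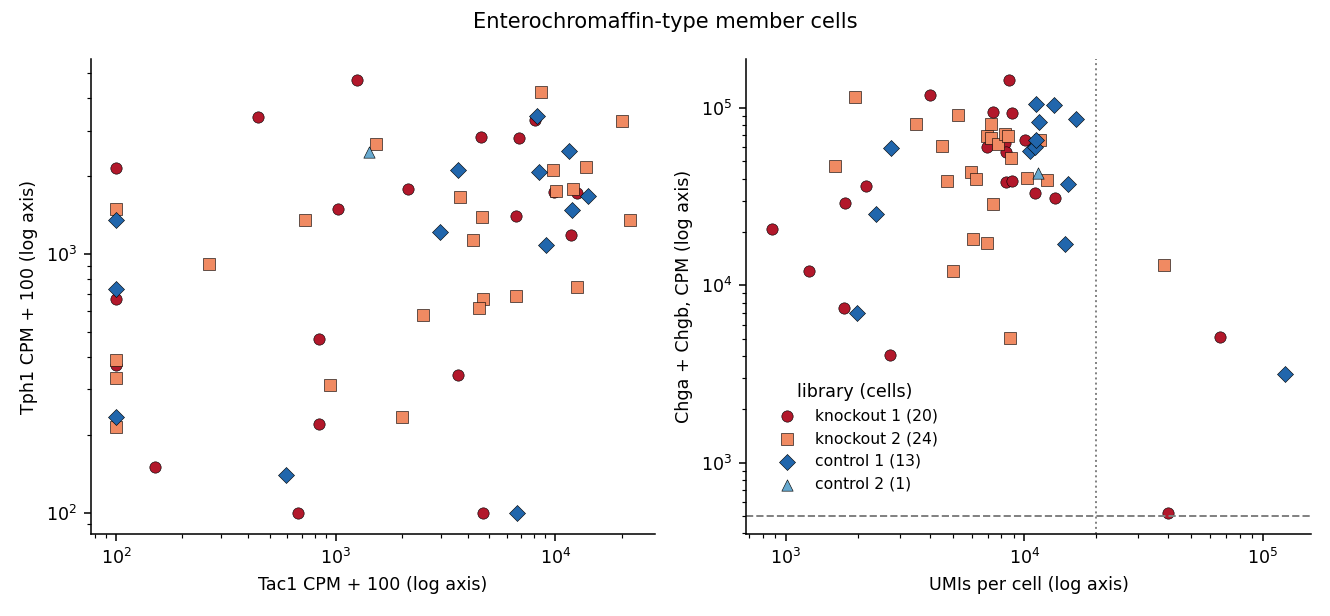
Each point is a member cell. The left panel plots Tac1 against Tph1 in CPM with 100 added (log axes), and the right panel plots UMIs per cell against Chga plus Chgb in CPM (log axes), with the dashed line at the 500 CPM limit and the dotted line at 20000 UMIs. The 4 deepest cells lie right of the dotted line, and the cells with no Tac1 UMI form the left edge of the left panel.

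Promoter sequences of the 4 genes that define these cells are shown because chromogranin and hormone genes are classic targets of cAMP signalling. The sequences are from RefSeq on GRCm38.p6, run from 250 bases before to 50 bases after the start site and read 5′ to 3′ on the strand of the gene. Capitals mark TGACG, the 5-base core of the cAMP response element, or its reverse complement CGTCA.

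Chgb promoter, chr2:132781392-132781691 (plus strand): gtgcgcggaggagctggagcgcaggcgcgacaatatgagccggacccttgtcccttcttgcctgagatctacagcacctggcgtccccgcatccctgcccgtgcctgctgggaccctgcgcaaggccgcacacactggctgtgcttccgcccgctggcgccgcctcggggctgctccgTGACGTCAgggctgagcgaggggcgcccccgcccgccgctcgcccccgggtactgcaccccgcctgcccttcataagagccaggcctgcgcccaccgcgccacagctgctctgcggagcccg

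Chga promoter, chr12:102554691-102554990 (plus strand): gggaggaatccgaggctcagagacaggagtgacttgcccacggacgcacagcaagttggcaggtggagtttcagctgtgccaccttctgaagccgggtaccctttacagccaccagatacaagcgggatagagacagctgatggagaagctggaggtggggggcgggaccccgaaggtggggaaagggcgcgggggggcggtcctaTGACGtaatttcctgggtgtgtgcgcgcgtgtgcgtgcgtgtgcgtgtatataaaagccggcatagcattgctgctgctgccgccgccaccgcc

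Tac1 promoter, chr6:7554811-7555110 (plus strand): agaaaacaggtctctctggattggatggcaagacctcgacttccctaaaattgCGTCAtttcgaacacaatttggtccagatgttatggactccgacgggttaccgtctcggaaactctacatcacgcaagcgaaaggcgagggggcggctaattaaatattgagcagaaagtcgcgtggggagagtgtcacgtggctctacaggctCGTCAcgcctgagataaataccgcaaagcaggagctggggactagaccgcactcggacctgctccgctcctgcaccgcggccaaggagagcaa

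Tph1, upstream start, promoter, chr7:46672488-46672787 (minus strand): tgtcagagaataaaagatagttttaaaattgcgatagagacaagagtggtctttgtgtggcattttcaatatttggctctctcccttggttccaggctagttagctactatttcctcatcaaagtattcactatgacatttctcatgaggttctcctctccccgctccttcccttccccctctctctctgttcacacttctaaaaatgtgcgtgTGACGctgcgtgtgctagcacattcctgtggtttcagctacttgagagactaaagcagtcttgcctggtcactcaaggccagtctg

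Tph1, downstream start, promoter, chr7:46667328-46667627 (minus strand): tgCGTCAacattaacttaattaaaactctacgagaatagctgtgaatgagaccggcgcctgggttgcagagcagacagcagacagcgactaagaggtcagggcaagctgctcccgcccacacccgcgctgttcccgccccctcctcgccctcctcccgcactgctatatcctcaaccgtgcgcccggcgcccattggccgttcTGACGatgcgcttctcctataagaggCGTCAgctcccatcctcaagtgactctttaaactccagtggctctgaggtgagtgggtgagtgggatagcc

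The full 8-base element, TGACGTCA, was present in the Chgb window, where the core on each strand overlaps the other, and in 1.79% of 32851 promoters of the same length. The windows of Chga, Tac1 and Tph1 held the core without the full element, at 1 place in Chga, 2 in Tac1, 1 at the upstream start of Tph1 and 3 at its downstream start. TGACG on either strand occurred in 20.8% of all promoters. The Chga window also held TATAAA on the strand of the gene, as did 8.32% of promoters. These are matches of letters only.

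In the account that follows, members are set beside 97 peptide-hormone cells, which passed the same chromogranin gate with UMIs of Gcg, Cck, Pyy and Ghrl together at or above those of Tac1 and Tph1, and beside 5242 cells outside the gate. A further 32 gated cells held no UMI of these 6 hormone and enzyme genes and belong to neither class. The classes were cut from these same cells, so the differences are description and carry no test. Ratios compare means over the 4 libraries with 10 CPM added to each. As a background, 8.03% of 9372 genes measured at 10 CPM or more were higher in members than in peptide-hormone cells in all 4 libraries and 12.1% were lower. Against cells outside the gate, 18.3% of 9242 genes were higher in all 4 libraries and 17.4% were lower. In the 3 libraries with 10 or more members, 19.3% of genes were higher and 18.2% lower than in peptide-hormone cells, and 38.7% were higher and 20.4% lower than in cells outside the gate.

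The serotonin route was present from synthesis to storage. Of 15 measured genes of serotonin synthesis, storage and clearance outside the rule, 4 were higher in members than in peptide-hormone cells in all 4 libraries and 2 were lower, with a median ratio of 1.10 against 1.05 over all measured genes. Slc18a1, the vesicular amine transporter typical of endocrine cells, had 330 and 327 CPM in knockout members, and 271 and 440 CPM in control members. In peptide-hormone cells Slc18a1 had 64.2 and 56.2 CPM in the knockouts, and 58.7 and 69.0 CPM in the controls. Every library thus had more Slc18a1 in its members, at a ratio of 4.89, and 49 of the 58 members held a UMI of it. Slc18a2, the transporter better known from neurons, was low in members, at 13.6 and 20.5 CPM in the knockouts and 36.5 and 0 CPM in the controls, and had no UMI in peptide-hormone cells.

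Gch1, which starts the synthesis of the cofactor of Tph1, had 480 and 731 CPM in knockout members, and 482 and 880 CPM in control members. Peptide-hormone cells had 399 and 477 CPM of Gch1 in the knockouts, and 317 and 336 CPM in the controls, so members were higher in all 4 libraries by a ratio of 1.67. Ddc was at 520 and 736 CPM in knockout members and 466 and 264 CPM in control members. Peptide-hormone cells also carried Ddc, at 504 and 265 CPM in the knockouts and 390 and 216 CPM in the controls. Ddc therefore separated members from cells outside the gate, at a ratio of 9.02, more than from peptide-hormone cells, at 1.43. Qdpr, which recycles the cofactor, was higher than in peptide-hormone cells in all 4 libraries, at a ratio of 2.12. Neuronal Tph2 had no UMI in any member. Slc6a4, the serotonin reuptake transporter, had UMIs in 1 member. Maoa, which degrades serotonin, was at 49.8 and 148 CPM in knockout members and 24.3 and 0 CPM in control members, below the 141 and 221 CPM of knockout and 302 and 571 CPM of control cells outside the gate.

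Several hormones of other enteroendocrine cells were absent from members, whereas secretin was present in most of them, below its level in peptide-hormone cells. Of 13 measured hormone and secreted-peptide genes outside the rule, 1 was higher than in peptide-hormone cells in all 4 libraries and 5 were lower, with a median ratio of 0.182, which is that of Reg4. The gene that was higher was Ucn3, which encodes urocortin 3, at 58.8 and 92.0 CPM in knockout members and 162 and 264 CPM in control members. Ucn3 UMIs were confined to 9 members, and 4 of these held 10 or more. Neurotensin (Nts), Gip, Sst and Insl5 had no UMI in any member. Secretin (Sct) was detected in 48 members, at 398 and 1616 CPM in the knockouts and 1212 and 616 CPM in the controls. Peptide-hormone cells carried more Sct, at 5422 and 7910 CPM in the knockouts and 8823 and 24336 CPM in the controls, an inverse ratio (peptide-hormone cells over members) of 12.0, which is 6.81 without control 2.

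Some members stood out by genes that few others carried. Reg4, a secreted lectin used as a marker of enterochromaffin cells, summed to 367 and 2255 CPM in knockout members and 2849 and 0 CPM in control members. Peptide-hormone cells had 6852 and 8720 CPM of Reg4 in the knockouts, and 951 and 13750 CPM in the controls, so the order of the classes was not the same in every library. Only 14 members held a Reg4 UMI, and 4 cells held 50 or more: 57 UMIs in a knockout 1 cell, 424 in a knockout 2 cell, and 608 and 87 in control 1 cells. Neurog3, the transient factor of endocrine precursors, had 222 and 220 CPM in knockout members and 190 and 0 CPM in control members. Peptide-hormone cells had 22.9 and 2.25 CPM of Neurog3 in the knockouts, and 75.1 and 0 CPM in the controls. Neurog3 reached 10 UMIs in 4 members, from knockout 1, knockout 2 and control 1, and 3 of these 4 held no Tac1 UMI. All 4 held Tph1, which the rule requires of any member without Tac1. In the knockout 2 cell it was 1 UMI. The median Chga level of these 4 members was 1692 CPM, against 5663 CPM in the other 54 members. Their median Chgb level was not lower, at 44559 CPM against 39678 CPM in the other 54. Sox4, a factor of endocrine precursors, had a median of 992 CPM in these 4 cells, against 416 CPM in the other 54. At the other end, the 4 members with 10 or more Ucn3 UMIs came from knockout 1, knockout 2 and control 1, and had median levels of 22509 CPM Chga and 8418 CPM Tac1, against 4739 and 3187 CPM in the other 54. None of these 4 held a Neurog3 UMI, and Lmx1a was found in each of them, at a median of 406 CPM against 70.9 CPM. These sets were drawn after the values were seen and carry no test. Over the 58 members, Neurog3 and Chga had a Spearman correlation of -0.51 on CPM, whereas Neurog3 and Tac1 had one of -0.0989. Both values are descriptions over cells that share libraries and differ in depth.

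Transcription factors divided the 2 kinds of endocrine cell. Lmx1a, a homeobox factor that acts in the serotonin lineage of the gut, had 81.5 and 118 CPM in knockout members, and 97.3 and 352 CPM in control members. It had no UMI in peptide-hormone cells or in cells outside the gate of any library, and 35 members held a UMI of it. The gene lies on the plus strand of chromosome 1, from base 167689237 to 167848741, and Slc18a1 lies on the minus strand of chromosome 8, from 69037711 to 69089235 (GRCm38, GENCODE M21). Fev, an ETS factor of serotonergic cells, had 208 and 353 CPM in knockout members and 239 and 176 CPM in control members. Fev was also found in peptide-hormone cells, at 133 and 121 CPM in the knockouts and 185 and 112 CPM in the controls, and was nearly absent outside the gate. The members were higher in Fev in each library, at a ratio of 1.72. Foxa1, Runx1t1 and Sox4 were higher in members in all 4 libraries too, at ratios of 3.21, 2.06 and 2.15.

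The reverse held for factors of peptide-hormone lineages. Isl1 had 4.53 and 25.6 CPM in knockout members and 0 CPM in each control. Peptide-hormone cells had 623 and 261 CPM of Isl1 in the knockouts, and 498 and 51.7 CPM in the controls. Etv1 and Pax6 were lower in members on the mean, at inverse ratios of 5.97 and 3.05. Etv1 was lower in every library, whereas Pax6 in control 2 measured 176 CPM in the member, from 2 UMIs, against 172 CPM in peptide-hormone cells. The pan-endocrine factors Insm1, Nkx2-2 and Rfx6 were found in both classes, with ratios between 0.907 and 1.07, and Neurod1 was lower in members in each library, at a ratio of 0.510. Of 28 measured endocrine transcription factors, 5 were higher than in peptide-hormone cells in all 4 libraries and 4 were lower, and in the 3 libraries with 10 or more members 10 were higher and 6 lower. Against cells outside the gate, 13 of 25 were higher in all 4 libraries and 0 were lower.

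Granule genes other than the chromogranins were lower in members. Of 13 measured genes of granules and prohormone processing outside the rule, 0 were higher than in peptide-hormone cells in all 4 libraries and 9 were lower, with a median ratio of 0.379. Scg2, a secretogranin, had 76.9 and 148 CPM in knockout members, and 56.7 and 352 CPM in control members. Peptide-hormone cells had 1613 and 1466 CPM of Scg2 in the knockouts, and 958 and 2009 CPM in the controls. Cpe, the carboxypeptidase that trims prohormones, had 439 and 588 CPM in knockout members and 389 and 880 CPM in control members. Its levels in peptide-hormone cells were 1861 and 1714 CPM in the knockouts and 1350 and 1983 CPM in the controls. The groups of cells did not overlap for either gene. Scgn, a calcium-binding protein of endocrine cells, had 4.53 and 46.0 CPM in knockout members and 32.4 and 0 CPM in control members, against 747 and 304 CPM in knockout and 639 and 241 CPM in control peptide-hormone cells. Against cells outside the gate, 8 of 13 granule genes were higher in members in all 4 libraries and 0 were lower.

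Genes of exocytosis as a group lay near the shares of all genes, whereas channel genes were lower in members more often than all genes were. Among 21 measured exocytosis genes 2 were higher than in peptide-hormone cells in all 4 libraries and 3 were lower, and among 15 measured channel genes 1 was higher and 4 were lower. Rab3c, a small GTPase of secretory vesicles, had 434 and 598 CPM in knockout members, and 357 and 880 CPM in control members. Peptide-hormone cells had 50.4 and 45.0 CPM in the knockouts, and 68.1 and 8.62 CPM in the controls, a ratio of 10.9 that is 7.34 without control 2. Scn3a, a voltage-gated sodium channel, had 434 and 583 CPM in knockout members, and 482 and 704 CPM in control members. In peptide-hormone cells Scn3a had 96.2 and 160 CPM in the knockouts, and 82.2 and 138 CPM in the controls, so members were higher in each library by a ratio of 4.35. UMIs of Scn3a were found in 52 members. Abcc8, the sulphonylurea receptor subunit of the ATP-sensitive potassium channel, had no UMI in members, against 206 and 106 CPM in the knockouts and 113 and 138 CPM in the controls among peptide-hormone cells. The 3-library counts for channels were 2 higher and 6 lower. The mechanosensor Piezo2 had no UMI in any class, and the irritant channel Trpa1 had UMIs in 2 members, both from control 1.

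Of 15 measured receptor genes, 0 were higher in members than in peptide-hormone cells in all 4 libraries and 7 were lower. In the 3 libraries with 10 or more members, 3 were higher and 8 lower. Ffar1, a receptor for long-chain fatty acids, had UMIs in 3 members, at 4.53 and 30.7 CPM in the knockouts and 0 CPM in each control. Peptide-hormone cells had 454 and 360 CPM of Ffar1 in the knockouts, and 333 and 328 CPM in the controls. Gpbar1, a bile acid receptor, had no UMI in members, against 91.7 and 108 CPM in knockout and 75.1 and 103 CPM in control peptide-hormone cells. Ffar2, a receptor for short-chain fatty acids, was carried by 35 members, at 99.6 and 194 CPM in the knockouts and 150 and 0 CPM in the controls. Olfr558, an olfactory-type receptor described in mouse enterochromaffin cells, had 81.5 and 71.6 CPM in knockout members and 85.1 and 0 CPM in control members. Among peptide-hormone cells Olfr558 had 0 CPM in each knockout, and 0 and 8.62 CPM in the controls.

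**Figure D2:**
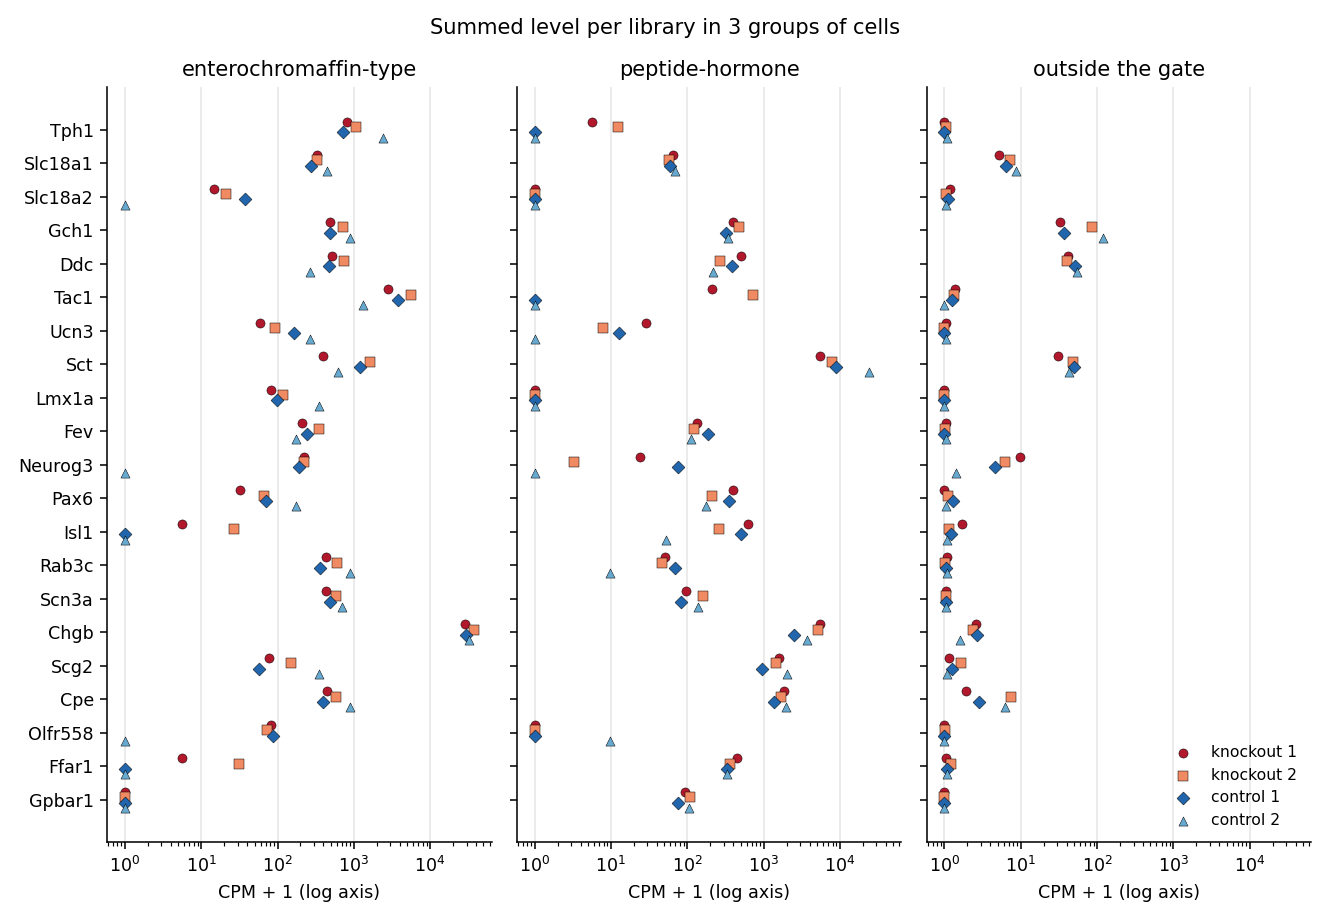
Summed level of genes named in the text in members, in peptide-hormone cells and in cells outside the gate, in CPM with 1 added (log axis). Each symbol is a library. Lmx1a and Slc18a1 are high in members, Isl1, Ffar1 and Gpbar1 are high in peptide-hormone cells, and a symbol at the left edge is a level of 0.

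The largest ratios over peptide-hormone cells, outside the lists already described, belonged to Tpbg and Cwh43. Tpbg, a surface glycoprotein also called 5T4, had 149 and 153 CPM in knockout members, and 219 and 264 CPM in control members. Among peptide-hormone cells a UMI of Tpbg was found in control 1 only, at 2.35 CPM, which gave a ratio of 19.5, or 17.1 without control 2. Cwh43 had 90.5 and 128 CPM in knockout members, and 81.0 and 1144 CPM in control members, and had no UMI in peptide-hormone cells. Its 1144 CPM was 13 UMIs of 1 cell, and its mean level in members was 361 CPM with control 2 and 99.8 CPM without it. The mean without control 2 is below the 100 CPM asked of genes named by ratio, and the ratio of 37.1 over all 4 libraries depends on the 10 CPM added. The cation channel Trpm2 had 49.8 and 40.9 CPM in knockout members and 40.5 and 440 CPM in control members. Its 440 CPM in control 2 was 5 UMIs of the same cell, and its ratio of 10.6 was 4.12 without that library. Genes outside the rule were also counted, at a mean of 100 CPM or more in the higher class and the same direction in every library used. By these limits 47 genes stood at 3-fold or more over peptide-hormone cells, and 60 genes at 3-fold or more below them. Without control 2 these counts were 32 and 60, and without members above 20000 UMIs they were 71 and 56.

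By the same limits on level and direction, 117 genes were at least 5-fold higher in members than in cells outside the gate. This count was 183 without members above 20000 UMIs. Vim, an intermediate filament gene, led those outside the rule with 1005 and 1155 CPM in knockout members and 1187 and 352 CPM in control members. Cells outside the gate had under 1 CPM of Vim in each library, whereas peptide-hormone cells had 509 and 1882 CPM in the knockouts, and 848 and 552 CPM in the controls. Vim therefore did not separate the 2 endocrine classes, at a ratio of 0.976.

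**Figure D3:**
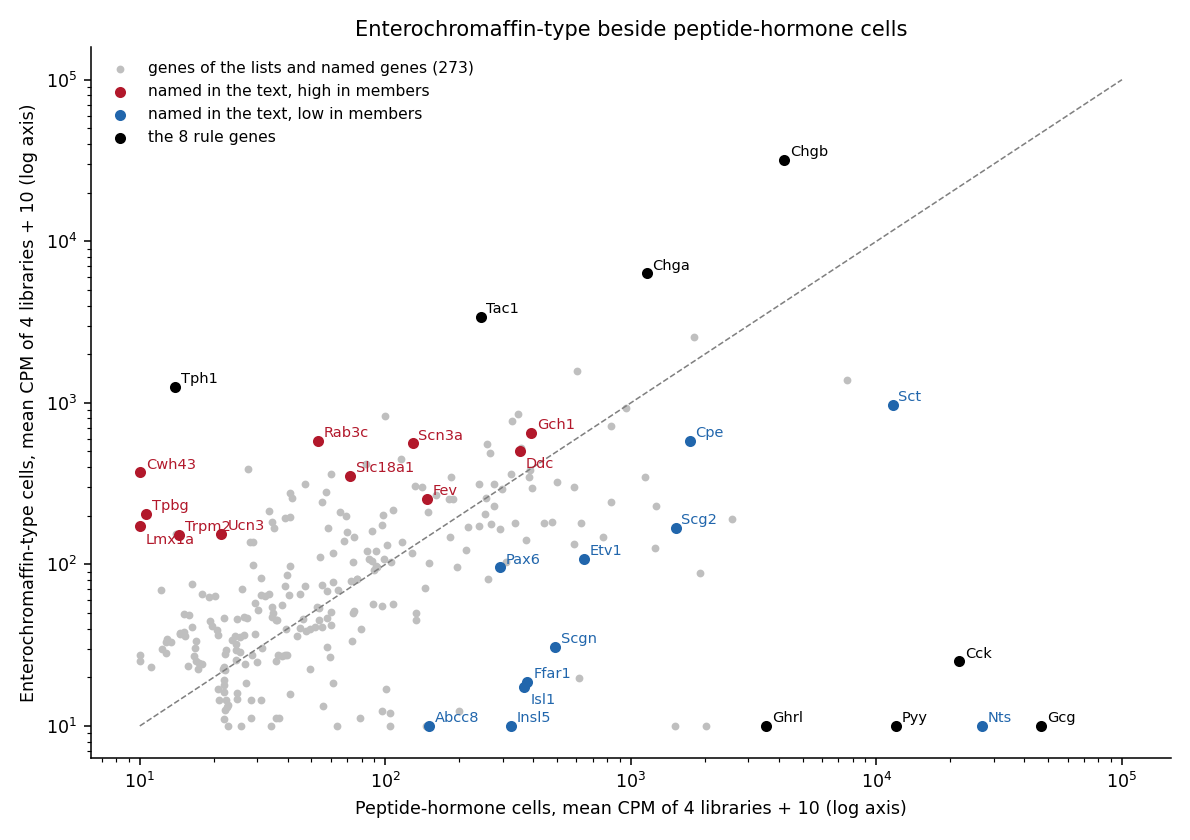
Mean CPM over 4 libraries with 10 added (log axes) in members against peptide-hormone cells, for 273 genes of the gene lists and named genes. Red and blue points are genes named in the text, black points are the 8 genes of the rule and the dashed line marks equal levels. Lmx1a and Cwh43 lie at the left edge, the value for no UMI in peptide-hormone cells, and Abcc8, Insl5 and Nts lie at the bottom, the value for no UMI in members.

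Markers of most cell types from outside the epithelium were at or near 0 in members. Of 7 glial and neuronal markers 3 had UMIs, summing to 31.7 and 112 CPM in the knockouts, and to 56.7 and 0 CPM in the controls, and 1 of 3 endothelial markers had any, at 46.0 CPM or less. None of 6 mesenchymal and 2 erythroid markers had a UMI, and 1 of 6 immune markers had any, summing to at most 4.05 CPM. Tuft-cell markers were at 0 except 1 of 7. Goblet-cell markers summed to 471 and 956 CPM in knockout members and 377 and 528 CPM in control members, and Paneth-cell markers summed to 634 and 1329 CPM in knockout members and 1479 and 616 CPM in control members. Cells outside the gate had Paneth sums of 21164 and 30565 CPM in the knockouts, and 29907 and 28511 CPM in the controls. Enterocyte markers summed in members to 801 and 4106 CPM in the knockouts, and to 543 and 880 CPM in the controls. Without members above 20000 UMIs the enterocyte sums were 1046 and 975 CPM in the knockouts, and 727 and 880 CPM in the controls. The stem-cell markers summed to 1978 and 404 CPM in the knockouts, and to 2212 and 176 CPM in the controls, and without the deep members they summed to 166 and 223 CPM in the knockouts, and to 212 and 176 CPM in the controls. The high enterocyte sum of knockout 2 and the high stem-cell sums of knockout 1 and control 1 were thus carried by the deep members.

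Members also varied among themselves in a graded way. Over the 58 cells, on log2 of CPM with 100 added, Tac1 and Tph1 had a Spearman correlation of 0.417. Among 6090 genes with a UMI in at least 20% of members, the gene most like Tac1 was Gstt1, a glutathione transferase, at 0.675, followed by Pam, the enzyme that amidates peptides such as substance P, at 0.624. Ddc and Vim were also among the 10 most like Tac1, at 0.540 and 0.524. The gene most like Tph1 was Slc18a1, at 0.513, followed by Camk2n1 at 0.505, and Trpm2 and Scn3a were among the 10 most like it, at 0.455 and 0.444. The median over all 6090 genes was 0.0223 for Tac1 and -0.0514 for Tph1. These correlations describe cells that share libraries and differ in depth. Over the 54 members up to 20000 UMIs Slc18a1 stood at 0.442 with Tph1, below Trpm2 at 0.541 and Camk2n1 at 0.488. The first place of Slc18a1 thus depended on the deep members.

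The targeted genes were too sparse in these cells to be compared. Cbl had 6 and 6 UMIs in knockout members, at 27.2 and 30.7 CPM, and 7 and 3 UMIs in control members, at 28.4 and 264 CPM. Their 95% Poisson intervals, which cover counting error only, were 9.97 to 59.1 CPM and 11.3 to 66.8 CPM in the knockouts, and 11.4 to 58.4 CPM and 54.4 to 771 CPM in the controls. Cblb had 6 and 1 UMIs in knockout members, and 17 and 0 UMIs in control members. In the far more numerous cells outside the gate, Cblb had 2.96 and 0.403 CPM in the knockouts, and 7.41 and 3.92 CPM in the controls, and Cbl had 12.1 and 10.1 CPM in the knockouts, and 16.6 and 19.9 CPM in the controls. Both genes were lower in the knockout library of each replicate number there. Which exons were removed and which part of the transcript was read is not given in the sources used here, so these counts are no direct measure of deletion.

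The share of enterochromaffin-type cells asked whether loss of Cbl and Cblb alters how many of these cells form. Members made up 1.21% of knockout 1 cells (95% Clopper-Pearson interval 0.742 to 1.87%) and 1.24% of knockout 2 cells (0.797 to 1.84%). They made up 1.12% of control 1 cells (0.598 to 1.91%) and 0.146% of control 2 cells (0.00369 to 0.810%). The means were 1.23 ± 0.0212% in knockouts and 0.633 ± 0.690% in controls (SD, n = 2 each), a difference of 0.594 percentage points with p = 0.333 in a two-sided exact permutation test. That is the smallest p which 2 against 2 libraries allow. The difference rested on control 2: within replicate number 1 it was 0.0910 percentage points and within number 2 it was 1.10 percentage points, and the control 1 interval covers both knockout shares.

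Among the cells that passed the chromogranin gate, members were 37.7% and 32.0% in the knockouts, and 26.0% and 11.1% in the controls. Both knockout libraries lay above both controls, by 16.3 percentage points on the means (34.9 ± 4.06% in knockouts and 18.6 ± 10.5% in controls, SD, n = 2 each), again with p = 0.333 in the exact permutation test. The controls rested on 13 of 50 and 1 of 9 gated cells, and their intervals of 14.6 to 40.3% and 0.281 to 48.2% overlap those of the knockouts, 24.8 to 52.1% and 21.7 to 43.8%. The share of the gate was 8.87 percentage points higher in knockouts when control 2 was left out.

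**Figure D4:**
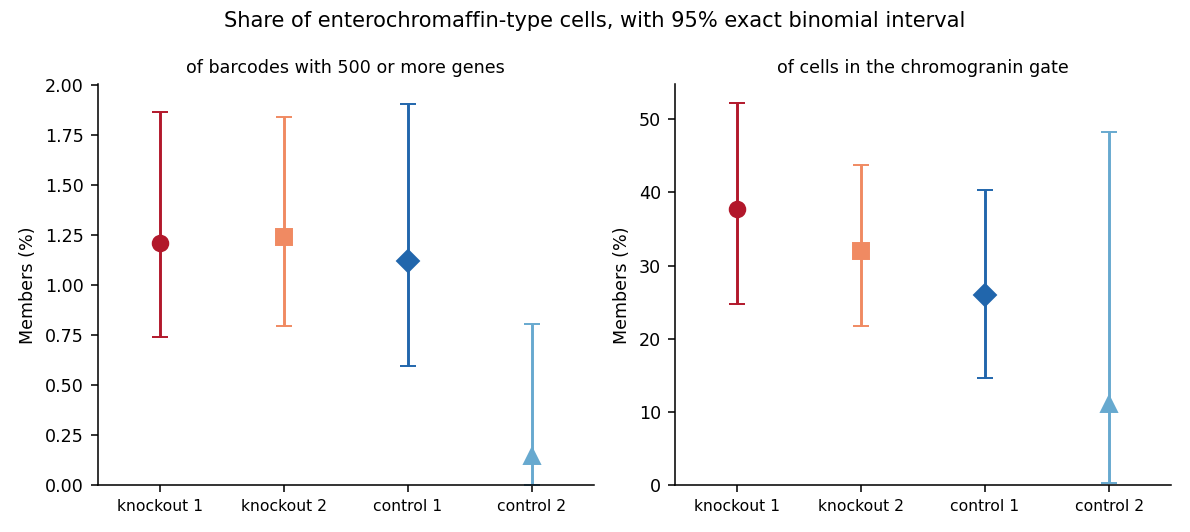
Share of members in each library among barcodes with 500 or more genes (left) and among cells of the chromogranin gate (right), in percent. Points are libraries and bars are 95% exact binomial intervals, which cover counting error only. Knockout 1, knockout 2 and control 1 lie close together on the left, and control 2 rests on 1 member.

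Cells at the border of the class were counted in each library. Peptide-hormone cells that also held Tac1 or Tph1 UMIs numbered 4 of 28 in knockout 1 and 9 of 37 in knockout 2, against 0 of 27 in control 1 and 0 of 5 in control 2. These are 14.3% (interval 4.03 to 32.7%) and 24.3% (11.8 to 41.2%) in the knockouts. The same intervals ran from 0 to 12.8% in control 1 and from 0 to 52.2% in control 2, and they overlap those of the knockouts. All of these intervals cover counting error only. Of the 13 cells, 10 held 5 or more such UMIs. Since both genes belong to the rule, these counts are given without a test.

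Gene expression within members was then compared between knockout and control libraries with the edgeR quasi-likelihood test on summed UMI counts. Of 4122 genes tested, 0 were higher and 0 lower in knockout members at a Benjamini-Hochberg adjusted p under 0.05, or 0% in each direction. At an unadjusted p under 0.05, 41 genes (0.995%) were higher and 33 (0.801%) were lower. DESeq2 gave 0 adjusted calls as well, with 5 higher and 10 lower at an unadjusted p under 0.05, and so did edgeR with the replicate number as a block, with 39 higher (0.946%) and 44 lower (1.07%). The smallest adjusted p was 0.9995 in edgeR with group as the only term and 0.847 with the block, and control 2 contributed a single cell. The counts depended on single libraries: 8 genes were higher and 5 lower without control 2, 11 higher and 6 lower without control 1, and 2 higher and 0 lower without knockout 1. The absence of calls at this depth does not show that knockout and control members were alike.

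The serotonin genes gave no call. Slc18a1 had a log2 fold change of 0.16 ± 0.48 (SE), Gch1 of 0.13 ± 0.52 and Ddc of 0.64 ± 0.53, each with an adjusted p of 0.9995 in edgeR. Of 10 tested serotonin genes outside the rule, 1 was higher and 0 were lower at an unadjusted p under 0.05, and their median log2 fold change was 0.14, against 0.07 over all genes. The higher gene was Maoa, at a log2 fold change of 2.00 ± 0.78 and an adjusted p of 0.9995. Of 19 tested endocrine transcription factors and of 12 tested exocytosis genes, 0 passed in either direction even unadjusted. With the block, 1 exocytosis gene was lower unadjusted. Of 4 tested hormone and secreted-peptide genes outside the rule, 1 was lower unadjusted with group as the only term. It was Ucn3, at a log2 fold change of -1.22 ± 0.50 and an adjusted p of 0.9995. Genes nearest to the function of the Cbl proteins were also tested with group as the only term. The 5 tested receptor tyrosine kinase genes had a median log2 fold change of 0.24, and 5 tested genes of ERK feedback had one of -0.69. In either list 0 were past an unadjusted p under 0.05. For ERK feedback the median was -0.45 with the block and -0.21, over 4 tested genes, without members above 20000 UMIs, and each of these fits had 1 gene lower unadjusted.

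Immediate-early and heat-shock genes respond to stimulation and to handling of cells. Of 15 measured, 7 were higher in members than in peptide-hormone cells in all 4 libraries and 0 were lower, a description against the 8.03% of all genes. Between knockout and control members they had fitted values below 0 for 9 of 11 tested genes, with a median of -0.36, against 1792 of 4118 genes below 0 and a median of 0.07 over all genes. Fosb, a subunit of the AP-1 factor, had 113 and 210 CPM in knockout members, and 348 and 264 CPM in control members, a log2 fold change of -1.02 ± 0.50 with an adjusted p of 0.9995. Dusp1, a phosphatase that switches off MAP kinases, had 45.3 and 92.0 CPM in knockout members, and 150 and 528 CPM in control members. Its log2 fold change was -1.53 ± 0.56. In control 1, 30 of the 37 Dusp1 UMIs lay in 1 cell, and the control 2 value was 6 UMIs of 1 cell. For Fosb, 30 of 86 UMIs in control 1 lay in 1 cell, and the control 2 value was 3 UMIs. Of the 11 genes 0 passed the adjusted test, and 1, Dusp1, was lower unadjusted. Without members above 20000 UMIs 4 were lower unadjusted, against 2.16% of all genes tested.

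Genes with the smallest p included Anks4b, a scaffold protein of microvilli, at 72.4 and 133 CPM in knockout members and 12.2 and 0 CPM in control members. Its log2 fold change was 3.01 ± 0.81 with an adjusted p of 0.9995. Thbs1, the extracellular thrombospondin, had 140 and 358 CPM in knockout members, and 44.6 and 0 CPM in control members, a log2 fold change of 2.51 ± 0.68. Both had lower values in both controls. However, a count of 0 in the control 2 cell allows up to 264 CPM, with 3 UMIs taken as its limit. Myl7, a myosin light chain, had 31.7 and 15.3 CPM in knockout members, and 146 and 88.0 CPM in control members. Its log2 fold change was -2.52 ± 0.62. In control 1, 30 of the 36 Myl7 UMIs lay in 1 cell, and the control 2 value was 1 UMI. Arc and Id2 had log2 fold changes of -1.97 ± 0.61 and -1.93 ± 0.60. The prohormone convertase Pcsk1 was at 136 and 245 CPM in knockout members and 523 and 352 CPM in control members, with a log2 fold change of -1.30 ± 0.50. None of these passed the adjusted test in edgeR over the 4 libraries, with or without the block, whereas Anks4b, Thbs1, Fabp2 and Myl7 passed when control 2 was left out.

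Some small p-values came with the deep members. Birc5 and Mki67, genes of dividing cells, had 167 and 92.0 CPM and 67.9 and 107 CPM in knockout members, against 28.4 and 0 CPM and 16.2 and 0 CPM in control members. All 18 Birc5 UMIs of knockout 2 and 35 of 37 in knockout 1 lay in members above 20000 UMIs, and both genes were below the count filter once those were left out. The 6 cycling markers summed to 425 and 506 CPM in the knockouts, and to 142 and 0 CPM in the controls, but to 69.8 and 12.7 CPM in the knockouts, and to 8.17 and 0 CPM in the controls, without the deep members. For Fabp2 of enterocytes, 108 of 112 UMIs in knockout 2 lay in the 38631-UMI cell.

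With the 4 deep members left out, 0 of 2682 genes passed in either direction (0%), with 50 higher (1.86%) and 58 lower (2.16%) at an unadjusted p under 0.05, and the smallest adjusted p was 0.714. Without the deep cells Anks4b, Thbs1 and Myl7 had log2 fold changes of 3.15, 2.13 and -2.82, against 3.01, 2.51 and -2.52 with them. With the block added to that fit, 1 gene, Lamb3, was lower in knockout members at an adjusted p of 0.0216. Lamb3 encodes a subunit of laminin 332. Without the deep members it had 8.72 and 82.8 CPM in the knockouts, and 98.0 and 968 CPM in the controls. The control 2 value came from 11 UMIs of 1 cell. Both knockouts lay below both controls in that setting. With the deep members kept, Lamb3 had 13.6 and 81.8 CPM in the knockouts, and 48.6 and 968 CPM in the controls. Knockout 2 then exceeded control 1, so the groups overlapped.

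**Figure D5:**
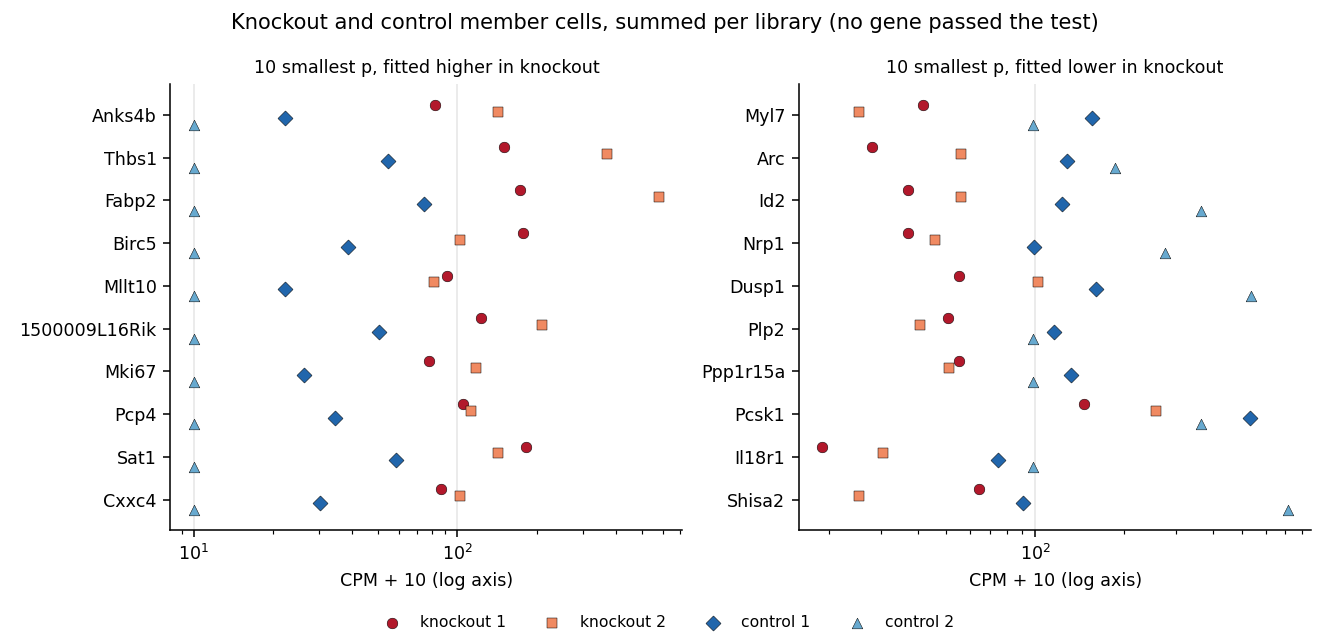
Level of the 10 genes with the smallest p in each direction in knockout and control members, in CPM with 10 added (log axis), summed per library. The symbols of knockout 1 and knockout 2 lie right of both controls in the left panel and left of them in the right panel, a separation to which the choice of genes contributes. None of the 20 genes passed the adjusted test.

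Whether the knockout difference was the same in members and in peptide-hormone cells was tested through the interaction term of class and group, holding each library as its own block. Of 5069 genes, 3 had a more positive difference in members (0.0592%) and 1 a more negative one (0.0197%) at an adjusted p under 0.05 in edgeR, with 78 (1.54%) and 35 (0.690%) unadjusted. The 3 were Guca2a and Guca2b, which encode the intestinal peptides guanylin and uroguanylin, and Cenpf, a kinetochore protein. Guca2b had 0 and 639 CPM in knockout members, and 24.3 and 0 CPM in control members. In the 38631-UMI cell of knockout 2 lay 124 of its 125 UMIs there, as did 51 of 55 Guca2a UMIs and 15 of 15 Cenpf UMIs. Only 1 gene, the rule gene Tac1, passed without the deep members, so outside the rule 0 genes passed in either direction. Without knockout 1, and without knockout 2, 0 genes passed. The call of Tac1 is not used as a result, since the rule sets its level in both classes.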

How the data were processed

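Droplet RNA sequencing covered 2 knockout and 2 control libraries of mouse organoids. Each deposited matrix holds whole-number UMI counts for 31040 genes, for which the submitters' processing notes list Cell Ranger 3.0.1 and mm10, and per the file headers the software version was 3.0.0; the annotation release and strand setting are not given in the sources used here, so overlapping genes and near-identical copies are uncertain. The deposited barcodes numbered 5602, of which 173 with under 500 genes were left out. Identifiers matched GENCODE M21 for 30921 genes.

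The cells, the gene lists and the limits used here were chosen with earlier results of these data known. UMI counts of members were summed per library and tested with edgeR 4.0.16 in R 4.3.3 (TMM scaling, filterByExpr, two-sided, Benjamini-Hochberg over all genes tested, threshold 0.05, group as the only term), after checks on simulated data. Descriptions use CPM of the summed counts, from 220958, 195588, 246786 and 11366 UMIs in knockout 1, knockout 2, control 1 and control 2. Shares were compared with exact permutation tests in SciPy 1.17.1. Alternatives were DESeq2 1.42.0, RLE scaling, no filter on low counts, each library left out, stricter limits of 10 UMIs and 1000 CPM, Tac1 plus Tph1 at 5 UMIs, thinning to 5000 UMIs, 1000 genes per barcode, and the removal of likely doublets by Scrublet score in scanpy 1.11.5 (the highest 0.8% per 1000 barcodes, 67 barcodes, 1 of them a member); in the main results no doublets were removed. Leaving out members above 20000 UMIs was chosen after seeing the data.

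Genes were named by rules on ratio, level and p: in the descriptions, outside the 8 rule genes, the 20 largest ratios over each other class and the 10 smallest over peptide-hormone cells, at 100 CPM or more and with the same direction in all 4 libraries; between groups, the 10 smallest p in each direction at an average log2 CPM of 5 or more with the same direction in both replicate numbers; the 10 genes most like Tac1 or Tph1; and the members of the gene lists. Of these, the text gives those with the clearest values or known roles, chosen after their values were seen. Same-numbered libraries carry a common tag in the deposited names, and the labels name 2 mice; the deviations of same-numbered libraries from their group means correlated at 0.0989 over 8430 genes in members and at 0.839 over 7867 genes in cells outside the gate. Promoter sequences came from RefSeq on GRCm38.p6. A further result is not reported here.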

Additional observations from a re-analysis of the deposited data

Results flagged for a closer look

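For 3 genes outside the rule the knockout effect in enterochromaffin-type cells and that in peptide-hormone cells differed past the threshold in the edgeR interaction test with Benjamini-Hochberg adjustment, and all 3 calls were lost without the deep members and with likely doublets removed. The log2 difference in knockout effect was 8.91 ± 1.66 (SE) for Guca2a, with an adjusted p of 0.000183, and 5.08 ± 0.96 for Guca2b, with an adjusted p of 0.000183. Guca2a had 4.53 and 281 CPM in knockout members and 0 CPM in each control. In peptide-hormone cells it had 96.2 and 288 CPM in the knockouts, and 575 and 43.1 CPM in the controls. Guca2b had 22.9 and 76.5 CPM in knockout peptide-hormone cells, and 195 and 51.7 CPM in control ones. For Cenpf the log2 difference was 5.48 ± 1.26 with an adjusted p of 0.0168. Knockout members held 8 and 15 Cenpf UMIs, and control members 2 and 0. Peptide-hormone cells had 9.17 and 20.2 CPM of Cenpf in the knockouts, and 110 and 0 CPM in the controls. Leaving out the deep members and removing likely doublets both leave out the 38631-UMI cell of knockout 2.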

How the results depend on the processing

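Counts of genes that differed between knockout and control members depended on which libraries entered. Against 0 higher and 0 lower, no filter on low counts gave 3 higher (Defa21, Guca2a and Apoa1), and leaving out 1 library gave 0 to 11 higher and 0 to 6 lower. By library these were 2 higher without knockout 1, 0 without knockout 2, 11 higher and 6 lower without control 1, and 8 higher and 5 lower without control 2; the lone control library is then assumed to vary like the knockouts. Without control 1 the median log2 fold change over all genes was 0.80, against 0.07. The replicate block gave 0 in each direction, and with members above 20000 UMIs also left out it gave 1 lower; DESeq2, RLE scaling, doublet removal, the stricter gate and Tac1 plus Tph1 at 5 UMIs also gave 0.

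For the interaction, against 3 higher and 1 lower (the rule gene Tac1), DESeq2, doublet removal and leaving out members above 20000 UMIs each gave 0 higher, the stricter gate gave 6 higher, and leaving out 1 library gave 0 to 3 higher and 0 to 1 lower, with 0 in each direction without knockout 1 and without knockout 2. Guca2b turned to -0.90 with doublets removed and -0.13 without members above 20000 UMIs, and ran from -2.15 (without knockout 2) to 8.79 over the libraries left out; the doublets removed included the 38631-UMI cell. No paired form of the interaction was needed, since the library was a block throughout.

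The differences of mean shares kept their direction under every alternative run. For the share of all kept cells, however, control 1 exceeded knockout 1 under some settings. With Tac1 plus Tph1 at 5 UMIs these shares were 0.948% and 0.909%, and with thinning to 5000 UMIs 1.031% and 0.986%. With 1000 genes per barcode they were 1.185% and 1.134%. In each of these settings the exact permutation test gave p = 0.667. The difference in the share of all kept cells ran from 0.449 to 0.594 percentage points under the other settings and from 0.106 (without control 2) to 1.08 (without control 1) with 1 library left out. The difference in the share of the gate ran from 8.87 to 23.8 percentage points with 1 library left out. Within replicate numbers the mean differences were 0.594 and 16.3 percentage points, and the exact sign-flip p of the block was 0.5, the smallest that 2 pairs allow. By the limits on level and direction given above, 183 genes were at least 5-fold over other cells without members above 20000 UMIs, against 117. In that setting 71 were at least 3-fold over peptide-hormone cells, against 47. Of the 20 genes named in each description, 11 and 6 were named again without control 2. The 1 member of control 2 limits every comparison: there, 3 UMIs are 264 CPM.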
